A study of Mus musculus with 16 samples.

Results

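Chromatin accessibility was described here at 9 genes of antioxidant and mitochondrial redox metabolism: Nnt, Cat, Sod1, Sod2, Gpx1, Txnip, Txnrd1, Hmox1 and Nfe2l2. Peaks of the 16 sample lists that overlapped or touched were merged on chromosomes 1 to 19, and every merged region that overlapped the GENCODE gene body of a member or the 3000 bp upstream of it was taken. This gave 89 of 347712 regions, spread over 25 regions at Nnt, 19 at Txnrd1, 13 each at Sod2 and Nfe2l2, 8 at Cat, 4 each at Sod1 and Hmox1, 2 at Txnip and 1 at Gpx1. The value of a region in a sample is the summit signal of its highest peak, divided by the median summit signal of that sample over the regions called in all 16 samples, so that 1 is the typical shared region of that sample and 0 means that no peak was listed there.

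The samples were ATAC-seq libraries, in which a transposase cuts and tags open chromatin, of about 50 isolated pancreatic islets each. They came from the 8 founder strains of a mouse mapping population: 129S1_SvImJ (129), A_J (AJ), C57BL/6J (B6), NOD_ShiLtJ (NOD) and NZO_HlLtJ (NZO), which are classical laboratory strains, and CAST_EiJ (CAST), PWK_PhJ (PWK) and WSB_EiJ (WSB), which are wild-derived. Each strain had 1 female and 1 male sample, no treatment, genotype or age is given in the labels, and the female and the male are the only 2 samples behind each strain, so that a p-value for strain measures a difference against the spread within these pairs. In whole islets, a change of accessibility per cell and a change in the share of a cell type cannot be told apart.

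Superoxide formed by respiration is converted to hydrogen peroxide by superoxide dismutases (Sod1 in the cytosol, Sod2 in the mitochondrial matrix), and the peroxide is removed by catalase (Cat), by glutathione peroxidases such as Gpx1, and by peroxiredoxins that draw electrons from thioredoxin. Nnt, the nicotinamide nucleotide transhydrogenase of the inner mitochondrial membrane, uses the proton gradient to make the NADPH that keeps glutathione and thioredoxin reduced in the matrix, and Txnrd1 is the cytosolic thioredoxin reductase. Txnip binds thioredoxin and is strongly induced by glucose in beta cells, Nfe2l2 encodes NRF2, the transcription factor that acts through antioxidant response elements, and Hmox1, heme oxygenase 1, is among its targets. C57BL/6J is known to carry a deletion of several exons of Nnt, and the mm10 assembly to which all reads were aligned is that of C57BL/6J, so that the deleted sequence is not part of it.

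The shortest list, that of the AJ male, held 77887 peaks and the longest, that of the WSB female, 167051. The median summit signal over shared regions was lowest in the PWK male (32) and highest in the CAST male (136). Promoter regions of 6 of 7 beta cell markers and 5 of 5 pan-endocrine markers had a peak, with summed scaled signals of 10.6 to 15.4 and 13.4 to 23.2 over the 16 samples. The summed signal of the acinar markers was at most 1.16, of the duct markers at most 1, of the immune markers at most 1.13, of the stromal markers at most 0.509 and of the endothelial markers at most 0.33. The beta cell marker without a peak was Ins2, and the delta marker Sst had one in 1 sample. A missing promoter peak therefore cannot be read as absence of a cell type. The sums run over unequal numbers of genes, and the acinar sum came mainly from Bhlha15. The NZO male had the highest sum for the acinar, duct, immune and stromal markers and the lowest for the alpha and the pan-endocrine markers. Its values are therefore given beside several of the results that rest on it.

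Of the 89 member regions, 15 were called in all 16 samples, where 11.8% of all merged regions were. A further 17 were called in 8 to 15 samples, 25 in 2 to 7 samples and 32 in 1 sample. The 15 shared regions comprised 4 at Nnt, 3 at Cat, 2 at Txnrd1 and 1 each at the other members, and they included the promoter region of every member but Txnrd1. CAST and WSB females had the most member regions with a peak, at 57 and 55, and the AJ male the fewest, at 23. Their lists held 140841, 167051 and 77887 peaks, and the part of list length in these counts was not tested.

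The 8 member promoters called in all samples covered a wide range of levels. By the median over samples, the Sod2 promoter stood at 5.39, Hmox1 at 4.67, Nfe2l2 at 3.54, Txnip at 2.99, Cat at 2.78, Sod1 at 2.66 and Nnt at 2.25, and Gpx1 was the lowest of these at 0.685. The Txnrd1 promoter, with no peak in 9 samples, is described apart. Summit height is not a sum over length, and among the 40940 shared regions these levels fell at the 95.5th percentile for Sod2, the 94.0th for Hmox1 and the 31.5th for Gpx1. The promoter of the mitochondrial dismutase was thus among the most open shared regions, whereas the glutathione peroxidase promoter was below the typical shared region in 14 of the 16 samples. The median SD of the 8 strain means on the log2 scale was 0.23 for the 8 shared member promoters, 0.28 for the 15 member regions and 0.38 for all shared regions.

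**Figure D1:**
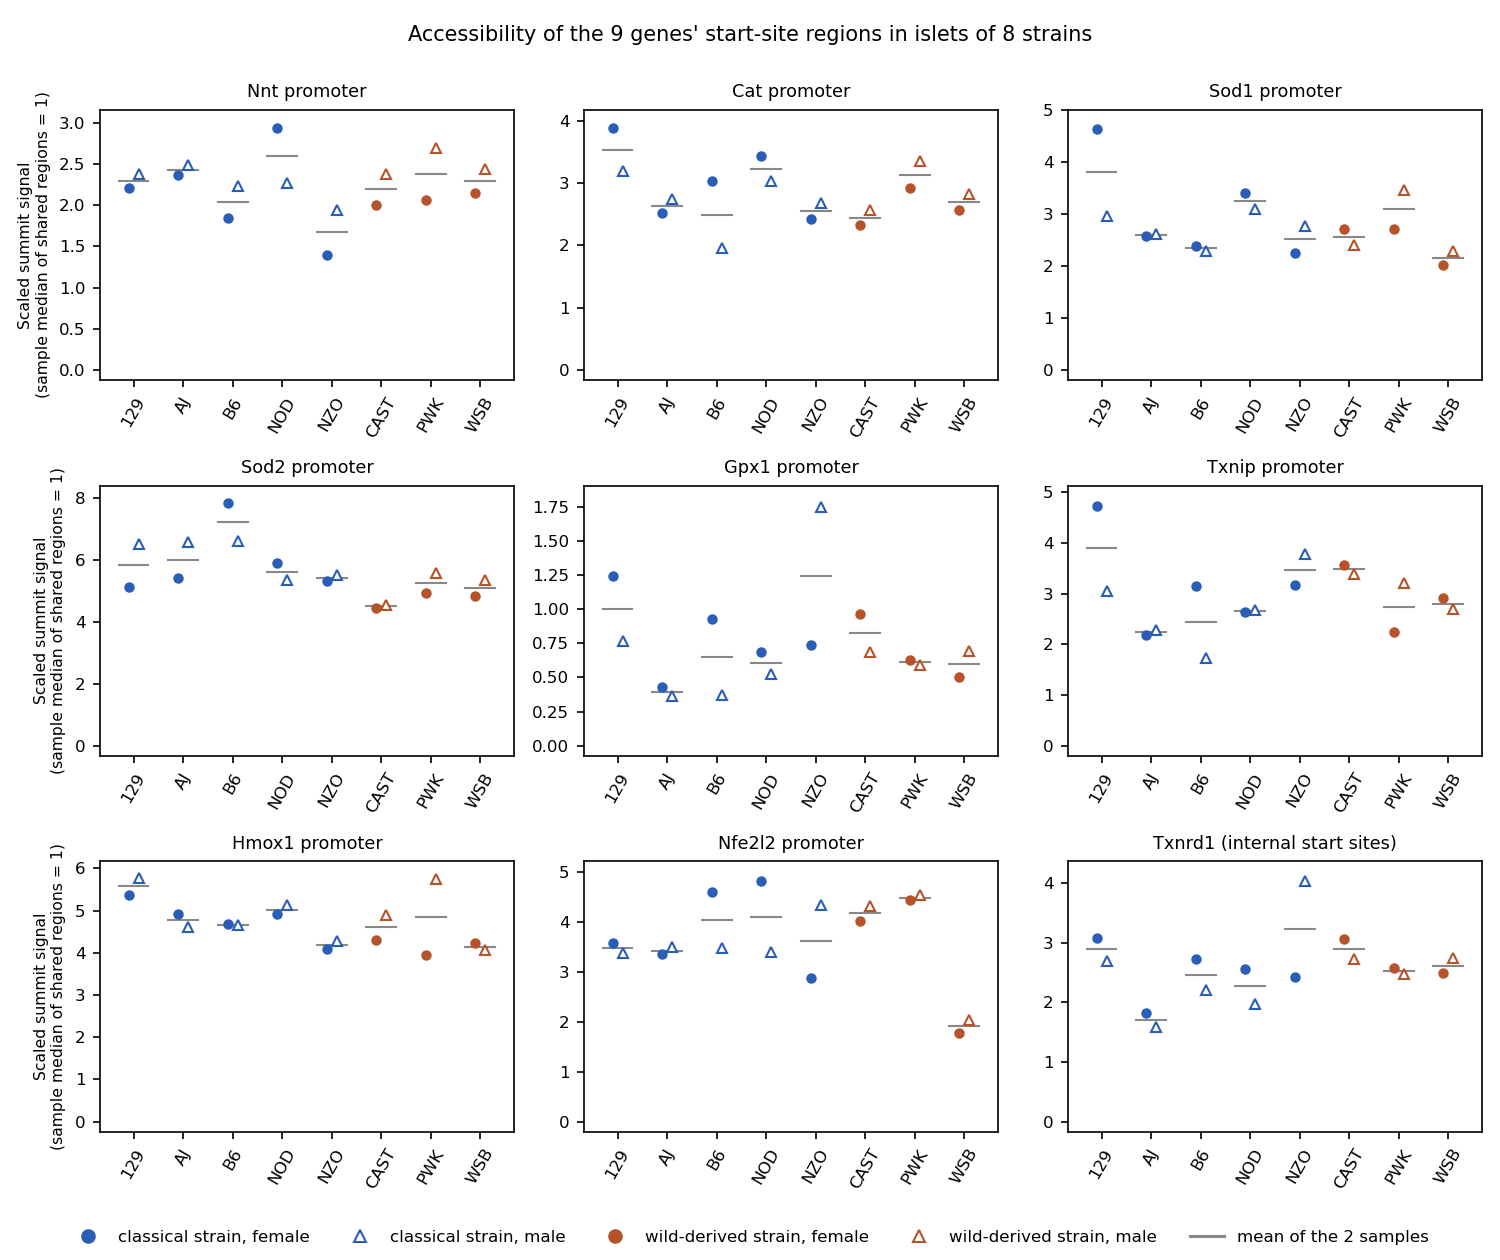
Scaled summit signal (y axis, each panel starting at 0) of the start-site region of each gene in every sample, by strain (x axis), with circles for females, triangles for males and a bar for the mean of the 2 samples. WSB stands below all other strains at Nfe2l2, where its samples are at 1.78 and 2.03, and B6 lies within the range of the other strains at Nnt.

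A moderated F test over the 8 strains (limma, with sex as a term, adjusted over all 40940 shared regions) called 2 of the 15 member regions, against a background of 35.7% of shared regions called. The regions were the Nfe2l2 promoter (adjusted p = 0.0433) and an intronic region of Txnrd1 (adjusted p = 0.0174). Among promoter regions of protein-coding genes, 21.6% were called for strain, and among the 8 shared member promoters 1 was. When each strain was set against the mean of the other 7, 3 of 120 contrasts passed at the members (background 7.34%). These were WSB at the Nfe2l2 promoter, CAST at the Txnrd1 intron and CAST at an internal Nnt region.

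**Figure D2:**
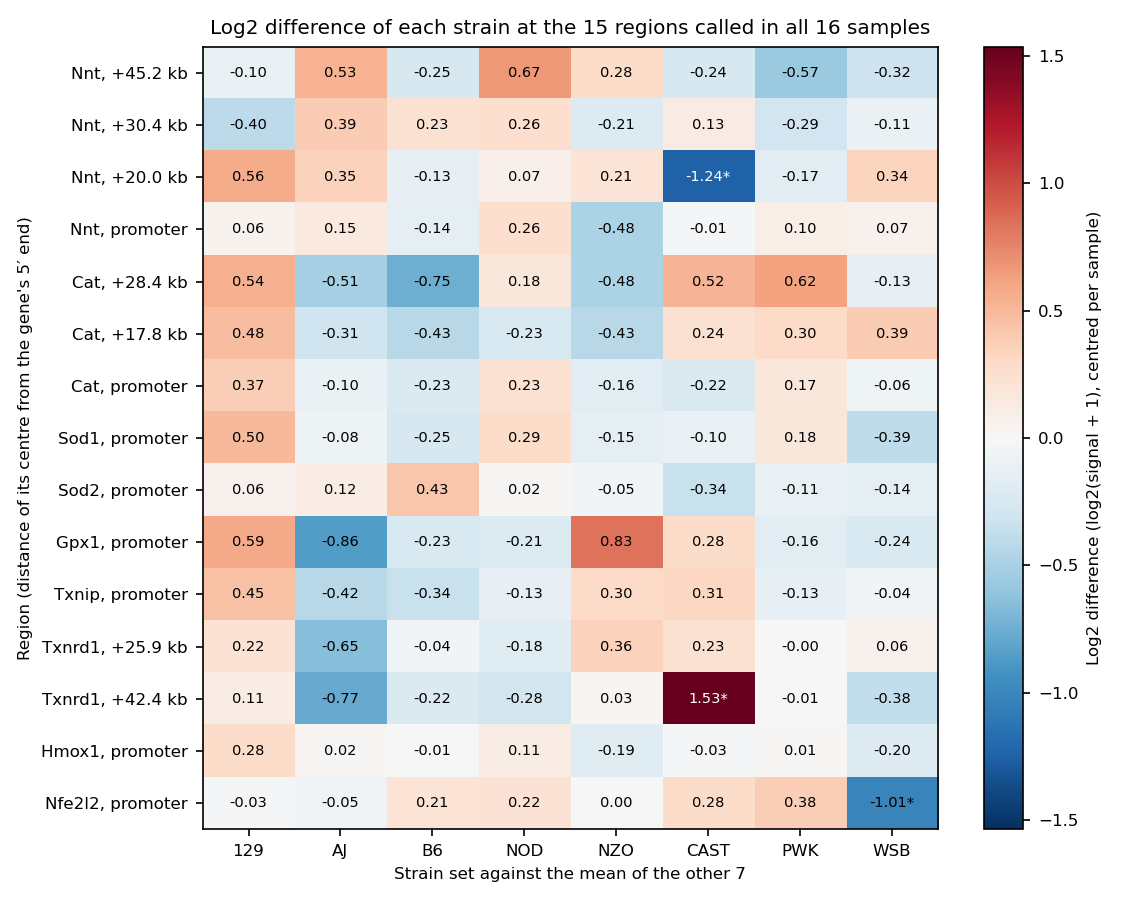
Log2 difference between each strain (columns) and the mean of the other 7 strains at each of the 15 member regions called in all samples (rows, named by gene and by distance from its 5′ end in kb). Blue is lower, red is higher, and an asterisk marks the 3 contrasts with an adjusted p under 0.05 (limma).

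Nnt was examined for a difference of B6, the strain that carries the deletion. Its promoter region (chr13:119407845-119410259, mm10) spanned the annotated 5′ end at the untranslated first exon, with summits 7 to 80 bp downstream of it. The B6 female stood at 1.85 and the B6 male at 2.23. The 14 samples of the other strains ran from 1.40 in the NZO female through a median of 2.32 to 2.93 in the NOD female, and both B6 samples lay inside that range. The mean of B6 was 2.04 ± 0.27 (SD, n = 2) and that of the other strains 2.27 ± 0.29 (SD over 7 strain means). The difference was -0.14 on the log2 scale (95% interval -0.53 to 0.26, limma adjusted p = 0.756), and NZO, not B6, had the lowest strain mean. With the strain as the unit, an exact permutation test gave a two-sided p of 0.5, where the smallest p that 8 arrangements allow is 0.125. The small B6 difference took the opposite sign without centring of the samples (0.055) and with the column read as the mean signal in place of the summit signal (0.038), and it passed the threshold under no alternative.

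Across all members, B6 was called at 0 of 15 regions (background 3.13%). At 1 of them its unadjusted limma p was under 0.05, as at 7141 of all 40940 shared regions. Its differences ran from -0.75 to 0.43, lower at 12 regions and higher at 3, with a median of -0.22 (-0.0049 over all shared regions). The 15 regions share the same 2 B6 samples and several lie in the same gene, so these signs are not independent. The highest difference was at the Sod2 promoter (0.43, adjusted p = 0.217), where the B6 female at 7.83 and the male at 6.61 were the highest 2 samples and the other 14 ran from 4.45 to 6.58.

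Within the Nnt gene, 3 more regions were called in all samples. The strongest lay in an intron 30.4 kb from the 5′ end (chr13:119378252-119378865), with a peak in the reproducible lists of all 8 strains. It ran from 0.741 in the 129 female through a median of 1.2 to 1.53 in the AJ male, and B6 was at 1.32 and 1.4, inside the range of the other strains (0.23 log2 difference, adjusted p = 0.579). A weaker intronic region 45.2 kb from the 5′ end (chr13:119363060-119364469) ran from 0.0806 in the PWK female to 0.531 in the PWK male, so that the 2 samples of PWK held both ends of the range, and B6 was at 0.286 and 0.253.

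At the region 20.0 kb from the 5′ end (chr13:119388901-119389101, an exon of a non-coding Nnt transcript), CAST was at 0.292 in the female and 0.176 in the male. The other 14 samples ran from 0.242 in the PWK female through a median of 0.578 to 0.828 in the 129 female. CAST held the lowest and the third-lowest values and overlapped PWK. CAST was lower by 1.24 on the log2 scale (95% interval -2.02 to -0.46, adjusted p = 0.0272, where CAST was lower at 13.8% of shared regions), while the test over all strains did not pass (adjusted p = 0.174). Without the CAST male the difference was -0.75 (adjusted p = 0.433) and without the CAST female -1.73 (adjusted p = 0.0668), where the remaining CAST sample was assumed to vary like the other strains.

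The remaining 21 Nnt regions were called in fewer than 16 samples. An intronic region 8.6 kb from the 5′ end (chr13:119400127-119400575), called in 15 samples, was at 0.889 and 1.07 in NZO and at 0.919 and 1.03 in PWK. The other strains ran from no peak in the WSB male to 0.534 in the 129 female, so that NZO and PWK did not overlap them. With regions called in at least 12 samples tested and 0 where no peak was listed, the test over strains gave an adjusted p of 0.096 there, above the threshold that 18.3% of the regions so tested passed. A region 66.9 kb from the 5′ end (chr13:119341835-119342281), also called in 15 samples, was highest in the B6 male at 0.699, followed by the AJ male at 0.491 and the B6 female at 0.476, and had no peak in the PWK female.

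Of the other Nnt regions, 2 were called in 11 samples toward the 5′ end and the middle of the gene (3.2 and 34.1 kb) and 1 in 11 samples at the 3′ end (73.5 kb, untranslated exon, lower than 0.5 in every sample). Those 15.6 and 32.4 kb from the 5′ end were called in 10 samples each, and the region at 62.6 kb in 5. The regions at 2.0, 69.6 and 71.0 kb were called in 4 samples each, that at 50.1 kb in 3 and that at 6.3 kb in 2, and 8 more in 1 sample each. B6 had a peak in at least 1 of its samples at 10 of the 13 regions called in 2 to 15 samples. CAST, NZO and WSB each had a peak at 10 of these 13 as well, so the count does not set B6 apart.

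**Figure D3:**
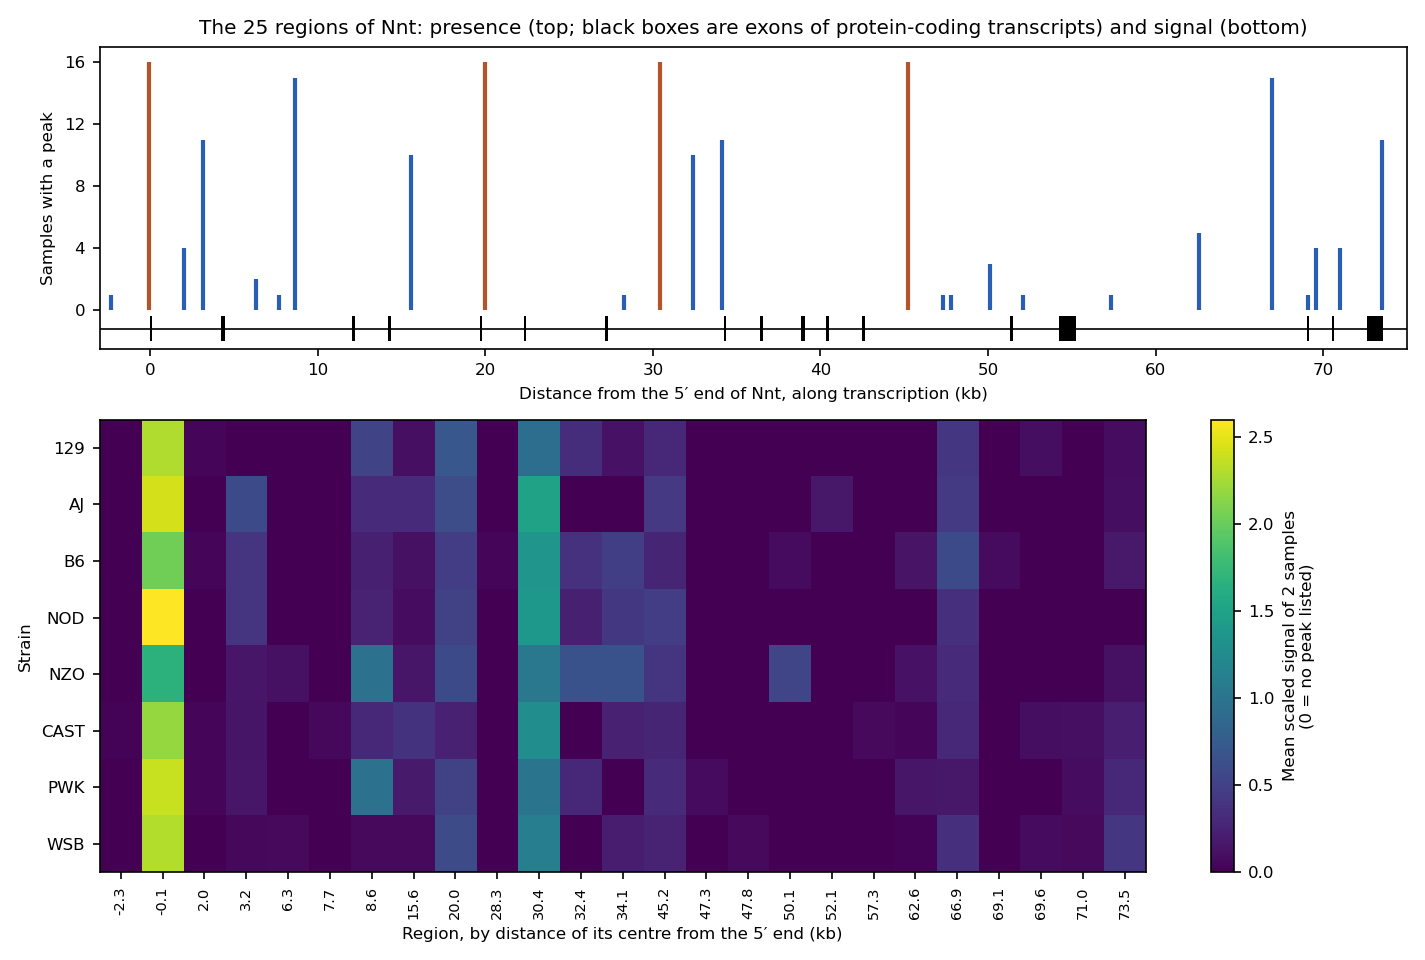
Regions of Nnt by distance from the 5′ end along transcription, in kb. The top panel gives the number of samples with a peak (brown for 16, blue for fewer) above the exons of protein-coding transcripts, and the bottom panel the mean scaled signal of the 2 samples of each strain, with 0 where no peak was listed; the promoter column is the brightest in all 8 strains.

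By strain means of centred log2 signal over the 8 strains, the promoters most like that of Nnt among 10512 gene promoters were those of Gpr45 (Pearson r = 0.973), Robo3 (r = 0.95) and Pou3f3 (r = 0.948), and 27 promoters had an r above 0.9. Among the members, the Hmox1 promoter (r = 0.53) and the Cat promoter (r = 0.52) came closest and the Gpx1 promoter was the most opposed (r = -0.65). These values rest on 8 points that share libraries and scaling, and they are given as a description.

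Nfe2l2 held the only member promoter called for strain. RefSeq places its start in the sequence below (GRCm38.p6, minus strand, chr2:75704614-75704913), shown because it lies inside the region where WSB differed. Capitals mark a TGACNNNGC match, the core of the antioxidant response element to which NRF2 itself binds, and GGGCGG matches (GC box), each on either strand.
Nfe2l2 promoter: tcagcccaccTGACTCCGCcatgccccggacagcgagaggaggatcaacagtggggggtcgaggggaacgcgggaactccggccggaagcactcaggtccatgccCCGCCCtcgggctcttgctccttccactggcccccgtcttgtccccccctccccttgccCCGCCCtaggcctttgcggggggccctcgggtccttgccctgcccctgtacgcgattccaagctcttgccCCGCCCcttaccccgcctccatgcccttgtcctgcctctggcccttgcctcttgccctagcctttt
The TGACNNNGC match began 240 bp before the start, and the 3 GC box matches, all on the opposite strand, began 145, 86 and 16 bp before it. TGACNNNGC was present in 12.5% of 31396 RefSeq promoter windows of this length, GGGCGG in 36% and the E-box CACGTG in 7.14%. Promoter sequences were at hand for 7 members, 9 windows in all. TGACNNNGC was found in 3 of these windows, those of Nfe2l2, of Sod1 (56 bp before the start) and of Txnrd1 (below), and CACGTG in none.

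The Nfe2l2 promoter region (chr2:75702654-75705731) had its summits 11 to 60 bp downstream of the 5′ end, in a stretch that also holds the gene E030042O20Rik. WSB was at 1.78 in the female and 2.03 in the male. The other 14 samples ran from 2.88 in the NZO female through a median of 3.8 to 4.81 in the NOD female, and WSB did not overlap them. WSB was lower by 1.01 on the log2 scale (95% interval -1.45 to -0.57, adjusted p = 0.0115), as it was at 3.14% of shared regions. With 1 WSB sample removed, the difference kept its sign but not its call: -0.90 without the female (adjusted p = 0.304) and -1.12 without the male (adjusted p = 0.184). It was -0.58 (adjusted p = 0.218) without centring and -0.40 (adjusted p = 0.213) with the mean signal. The test over all strains was near its threshold and was lost in 11 of the 16 fits that left out a sample, with adjusted p-values up to 0.29 without the WSB female.

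In an intron of Nfe2l2, 3.6 kb from the 5′ end (chr2:75700600-75701498), a region was called in all 6 wild-derived samples and in 1 classical sample. CAST was at 1.17 and 1.32, PWK at 0.565 and 0.281 and WSB at 0.179 and 0.205. The NZO male had 0.291, and the other 9 classical samples had no peak listed. CAST was therefore well above every other sample, while the NZO male lay between the PWK samples and above both WSB samples. WSB thus had a peak here although its promoter signal was the lowest of the strains. The 201 bp around the median summit (chr2:75700642-75700842, minus strand, from the GRCm38.p6 genome) held none of the 3 motifs.
Nfe2l2 intron: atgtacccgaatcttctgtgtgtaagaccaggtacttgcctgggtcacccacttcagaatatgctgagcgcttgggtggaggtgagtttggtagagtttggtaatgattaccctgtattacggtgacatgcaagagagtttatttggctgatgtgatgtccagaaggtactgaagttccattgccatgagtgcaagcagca

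Another intronic region of Nfe2l2, 7.9 kb from the 5′ end (chr2:75695800-75697599), had no peak in either AJ sample or in the PWK male, and ran from 0.12 to 0.434 in the other 13. The 5th percentile of all listed peaks was 0.138 and 0.2 in the AJ samples, within the range of those 13 values.

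Txnrd1 showed the clearest split between wild-derived and classical strains. The most upstream annotated start of the gene lies in the sequence below (GRCm38.p6, plus strand, chr10:82833701-82834000), shown because a peak was listed there in some samples only. It held none of the 3 motifs and had a GC content of 51.3%.
Txnrd1 upstream start: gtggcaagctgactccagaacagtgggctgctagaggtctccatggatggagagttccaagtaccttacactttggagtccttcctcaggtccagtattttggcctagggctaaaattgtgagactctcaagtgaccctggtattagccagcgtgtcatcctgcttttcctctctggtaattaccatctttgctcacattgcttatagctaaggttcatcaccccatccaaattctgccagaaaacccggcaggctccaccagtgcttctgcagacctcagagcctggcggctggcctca
At this region (chr10:82833729-82834518, summits 72 to 134 bp downstream of the 5′ end), CAST was at 1.7 in the female and 1.54 in the male, PWK at 0.984 and 1.31, and WSB at 0.443 and 0.295. Of the 10 classical samples, the NOD male had 0.22 and the other 9 had no peak listed. Every wild-derived sample was above every classical one. The 5th percentile of listed peaks in the classical samples ran from 0.107 to 0.2, and the part of the calling threshold in the missing peaks was not tested. Reproducible peaks were listed for CAST, PWK and WSB and for no classical strain.

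A peak in all 6 wild-derived samples and in at most 1 classical sample was found at 2 of the 89 member regions, Txnrd1 and Nfe2l2 above, and at 0.338% of all merged regions. The converse, all 10 classical samples and at most 1 wild-derived, was found at 0 member regions and at 0.0129% of all. These patterns were noted after the values were seen and were given no test. The wild-derived lists held 121407 to 167051 peaks and the classical ones 77887 to 141307, and the part of list length in the pattern was not tested. Among the 15 shared regions, the comparison of wild-derived with classical strain means called 0 (background 0.0342%). At 1 of them the unadjusted limma p was under 0.05, as at 4960 of all 40940 shared regions.

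The main start region of Txnrd1 lay inside the annotated gene, 25.9 kb from its 5′ end (chr10:82858530-82861212, where Gm38560 is also annotated). It was chosen after its values were seen, as the rule placed the promoter at the most upstream start. RefSeq puts a start in the window below (plus strand, chr10:82858956-82859255), with a TGACNNNGC match on the opposite strand beginning 92 bp before the start and a GC box in capitals.
Txnrd1 internal start: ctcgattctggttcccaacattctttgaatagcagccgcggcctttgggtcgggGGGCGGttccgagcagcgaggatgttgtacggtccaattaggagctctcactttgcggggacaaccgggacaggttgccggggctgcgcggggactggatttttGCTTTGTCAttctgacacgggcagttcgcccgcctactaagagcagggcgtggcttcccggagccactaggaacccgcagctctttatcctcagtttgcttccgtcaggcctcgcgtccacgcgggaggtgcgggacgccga
The region was called in all samples and ran from 1.58 in the AJ male through a median of 2.57 to 4.04 in the NZO male. The AJ samples, at 1.82 and 1.58, were the lowest 2 of the 16, with a difference of -0.65 (adjusted p = 0.069). The wild-derived samples, between 2.47 and 3.06, lay within the classical range, unlike at the upstream start.

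A region in a Txnrd1 intron 42.4 kb from the 5′ end (chr10:82875951-82876729) was called for strain. Its median summit window (chr10:82876147-82876347, plus strand) is shown because CAST differed there, and it held none of the 3 motifs.
Txnrd1 intron: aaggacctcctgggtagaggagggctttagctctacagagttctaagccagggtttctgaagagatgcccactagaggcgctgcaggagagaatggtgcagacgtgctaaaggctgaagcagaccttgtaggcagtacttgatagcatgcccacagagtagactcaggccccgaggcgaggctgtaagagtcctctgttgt
CAST was at 1.24 in the female and 1.35 in the male, while the other 14 samples ran from 0.291 in the AJ male through a median of 0.402 to 0.759 in the 129 female. CAST did not overlap any other strain, the other wild-derived samples (0.371 to 0.656) included. CAST was higher by 1.53 on the log2 scale (95% interval 0.96 to 2.11, adjusted p = 0.00132), as it was at 6.82% of shared regions. Without the CAST male the difference was 1.44 (adjusted p = 0.0546), and the test over strains gave 0.137 without the CAST male and 0.101 without the CAST female. At 3 further Txnrd1 introns and exons, the regions called in 9, 11 and 12 samples had a peak in all 6 wild-derived samples, at levels up to 0.594, and in 3, 5 and 6 of the 10 classical samples. How often regions called in so many samples have a peak in all 6 wild-derived samples was not computed. The part of the longer wild-derived lists was not tested.

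**Figure D4:**
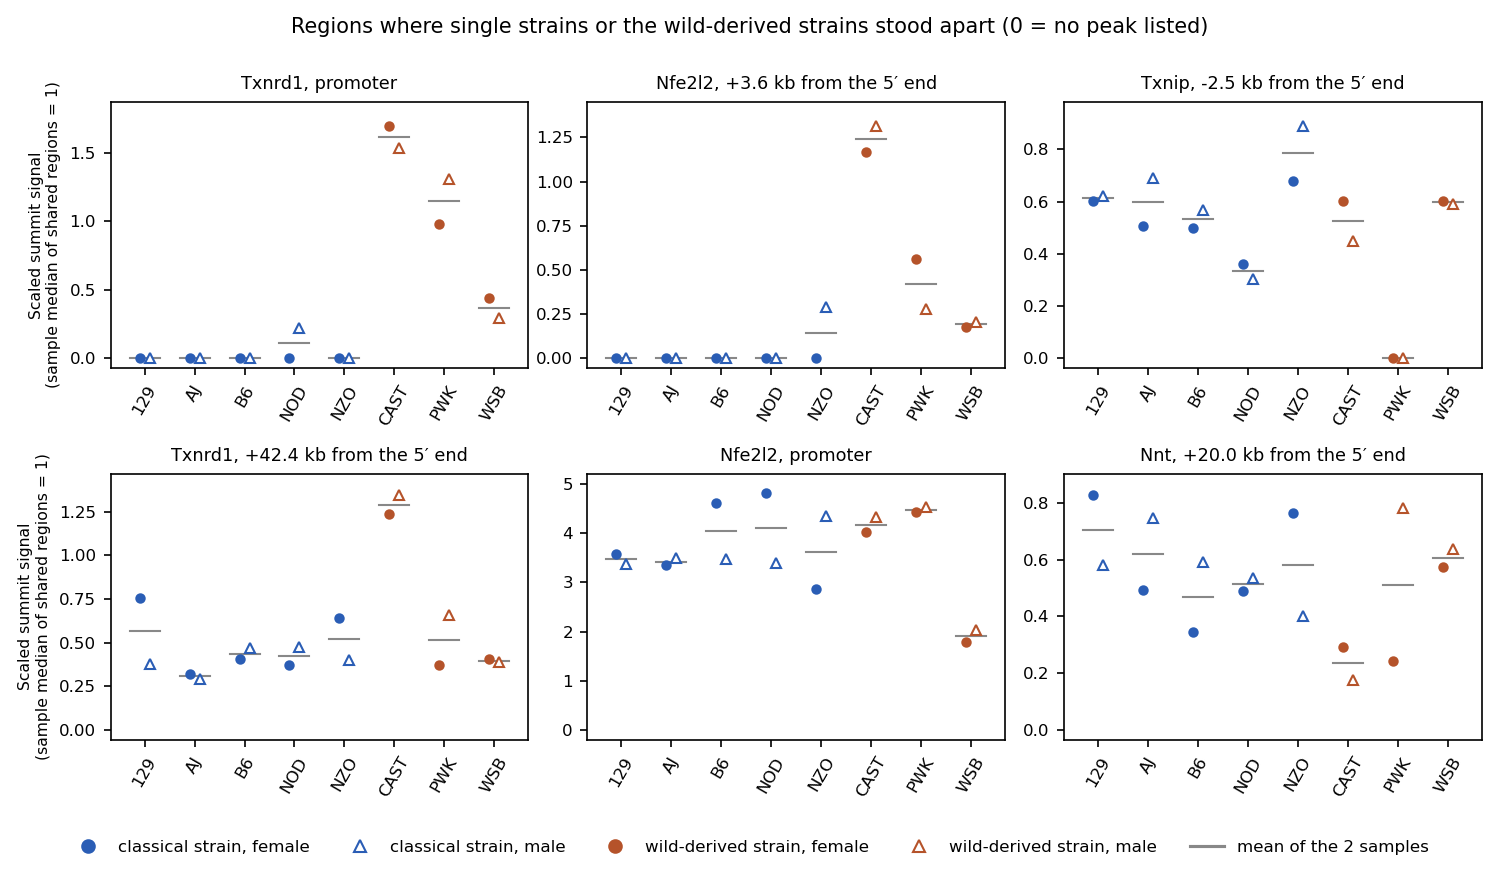
Scaled summit signal (y axis) of 6 member regions, by strain (x axis), with circles for females, triangles for males, a bar for the mean of the 2 samples and 0 where no peak was listed. The regions had a call over strains, a call for a single strain or a pattern of listed peaks described in the text. CAST overlaps PWK at the Nnt region, and the NZO male lies above both WSB samples at the Nfe2l2 intron. At the Txnrd1 promoter CAST reaches 1.7, at the Txnip upstream region both PWK samples have no peak, and at the Nfe2l2 promoter WSB is at 1.78 and 2.03.

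Txnip lacked a peak in 1 wild-derived strain at an upstream region, 2.5 kb before its 5′ end (chr3:96555061-96555877, also within Gm15441). It was called in 14 samples and in neither PWK sample. The 14 ran from 0.305 in the NOD male through a median of 0.597 to 0.891 in the NZO male. Both PWK samples were thus below every other sample, including those of CAST at 0.604 and 0.449 and WSB at 0.604 and 0.591. The 5th percentile of listed peaks was 0.113 in the PWK female and 0.125 in the PWK male. No fold is given against samples with no listed peak, and the fit that set such samples to 0 is named in the closing section. A region called in all samples but the 2 of 1 strain made up 0.735% of all merged regions and 1 of the 89 at the members.
Txnip upstream: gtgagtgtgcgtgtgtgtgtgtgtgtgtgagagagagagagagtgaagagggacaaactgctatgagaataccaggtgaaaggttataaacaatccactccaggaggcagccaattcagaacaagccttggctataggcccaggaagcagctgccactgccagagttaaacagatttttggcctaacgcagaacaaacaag
This window around the median summit (chr3:96555341-96555541, plus strand, GRCm38.p6) is shown because PWK lacked a peak there, and it opens with a run of alternating g and t. None of the 3 motifs was found in it.

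The Txnip promoter itself (chr3:96556841-96565097) formed part of a merged region 8257 bp wide that covers the whole gene, with the summit 86 to 134 bp upstream of the 5′ end in every sample. It ran from 1.73 in the B6 male through a median of 2.99 to 4.74 in the 129 female. PWK, at 2.24 and 3.22, was inside the range of the other strains, so the absence of the upstream peak in PWK was not accompanied by a low promoter. The strain test gave an adjusted p of 0.253.

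The enzymes that remove superoxide and peroxide showed no strain difference past the threshold. The Sod1 promoter (chr16:90219800-90222955) ran from 2.02 in the WSB female through a median of 2.66 to 4.64 in the 129 female, with WSB lowest and 129 highest by strain mean (strain adjusted p = 0.188). Sod2 (chr17:13006683-13010767) had its summit 1025 to 1031 bp downstream of the GENCODE 5′ end in every sample. This position lies inside the RefSeq promoter window of Sod2 (chr17:13007589-13007888). CAST was the lowest strain at Sod2, at 4.45 and 4.55 (strain adjusted p = 0.32). The Cat promoter (chr2:103484257-103485771) ran from 1.95 in the B6 male through a median of 2.78 to 3.88 in the 129 female (strain adjusted p = 0.404). 129 had the highest strain mean at the promoters of Sod1, Cat, Txnip and Hmox1, and its contrast passed at none of them (adjusted p = 0.16, 0.268, 0.263 and 0.354). The highest single sample was the 129 female at Sod1, Cat and Txnip and the 129 male at Hmox1. How often 129 is the highest strain over all promoters was not computed.

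Cat also had 2 exonic regions called in all samples, 17.8 kb and 28.4 kb from the 5′ end (chr2:103466873-103467764 and chr2:103456576-103456922). The first ran from 0.301 in the B6 male to 0.968 in the PWK female. The second ran from 0.205 in the B6 male to 1.21 in the 129 female, and the 129 male, at 0.362, and the PWK female, at 0.403, were far below the other sample of their strain. Neither was called for strain (adjusted p = 0.191 and 0.277).

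Among the 8 promoters called in all samples, Gpx1 was the least open and had the largest SD of strain means, 0.47 on the log2 scale (chr9:108338849-108340686). It ran from 0.364 in the AJ male through a median of 0.685 to 1.75 in the NZO male, whose partner, the NZO female, was at 0.741. AJ was low in both samples, at 0.431 and 0.364, with the B6 male at 0.373 between them. The strain test gave an adjusted p of 0.141 over all samples and 0.0112 without the NZO female, where the NZO male alone stood for its strain. The difference of NZO was 0.83 (adjusted p = 0.137) and that of AJ -0.86 (adjusted p = 0.112).

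The Hmox1 promoter (chr8:75092714-75094217) was the most even of the 15 regions, with an SD of strain means of 0.14 on the log2 scale, at the 0.879th percentile of all shared regions. It ran from 3.95 in the PWK female through a median of 4.67 to 5.78 in the 129 male, and the ratio of its highest to its lowest sample was 1.46. The strain test gave an adjusted p of 0.694, the highest among the members, and the differences of single strains from the others lay between -0.20 in WSB and 0.28 in 129. The other 3 Hmox1 regions were each called in 1 sample.

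Of the lesser regions, 10 of those of Txnrd1, 5 of Sod2, 3 of Cat, 2 of Nfe2l2 and 1 of Sod1 were called in 1 sample each. A Sod2 region over an untranslated exon (chr17:13019776-13023237) was called in all samples but the NZO male and ran from 0.228 to 0.564 in the rest. A region at the end of Sod1 was called in both CAST samples and in no other, and one in a Cat intron in both WSB samples and in no other, where 4.4% of all merged regions were called in both samples of 1 strain alone. Nfe2l2 had 2 further intronic regions called in 15 samples (chr2:75680939-75682199 and chr2:75688903-75689578), of which the first lacked a peak in the B6 male and the second in the AJ male.

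Females and males did not differ past the threshold at any of the 15 regions (0 called, background 0%, with 0 members and 1621 of all regions at an unadjusted p under 0.05). The differences of female from male ran from -0.17 at the Nnt promoter to 0.29 at the exonic Cat region 17.8 kb from the 5′ end. At the Nnt promoter the females ran from 1.40 to 2.93 around a median of 2.11 and the males from 1.95 to 2.69 around a median of 2.38, so the sexes overlapped (95% interval of the difference -0.43 to 0.09).

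The wider redox network was read from 7 lists of 61 genes, by promoter region. Of these, 56 had a promoter peak, 47 had one in all samples, and 6 of the 47 (12.8%) were called for strain, where 21.6% of promoter regions of protein-coding genes and 35.7% of shared regions were. By list the calls were 1 of 7 in glutathione synthesis and recycling, 0 of 6 among peroxidases and peroxiredoxins, 3 of 6 in the thioredoxin system and relatives of Txnip, 0 of 8 among partners and regulators of Nfe2l2, 1 of 13 in NADPH supply, 1 of 4 in heme and iron handling and 0 of 3 in other superoxide defence. The median adjusted p over the listed promoters was 0.131, and over all shared regions 0.0921.

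Slc7a11, the cystine transporter that feeds glutathione synthesis, was higher in B6, at 3.01 and 3.75 against 1.47 to 3.0 in the other 14 samples (0.76 log2 difference, adjusted p = 0.0353), a direction called for B6 at 1.46% of shared regions. Txnrd2, the mitochondrial thioredoxin reductase, was higher in CAST, at 1.73 and 1.81 against 0.623 to 1.53 (0.96, adjusted p = 0.00421), as CAST was at 6.82% of shared regions. Hmox2, the constitutive heme oxygenase, was lower in AJ, at 0.723 and 0.382 against 0.817 to 2.02 (-1.32, adjusted p = 0.00928), as AJ was at 3.14%. In these 3 the named strain did not overlap the others, narrowly so at Slc7a11, where the PWK male was at 3.0. At 4 listed genes a single strain passed although the test over strains did not. CAST was higher at the peroxiredoxin gene Prdx5 (0.94, adjusted p = 0.0226, against 6.82% of shared regions). It was lower at the thioredoxin gene Txn1 (-0.51, adjusted p = 0.0498, against 13.8%). PWK was lower at Sqstm1 (-0.78, adjusted p = 0.0482, against 5.75%). NZO was lower at Me3 (-0.65, adjusted p = 0.0441, against 2.87%), at 1.83 in the female and 1.58 in the male. Over the 47 listed promoters, CAST passed at 3, AJ, B6, NZO and PWK at 1 each, and 129, NOD and WSB at 0. Of all shared regions, CAST passed at 20.6%, AJ at 6.81%, B6 at 3.13%, NZO at 5.19% and PWK at 11.1%. Arrdc3 and Arrdc4, arrestin-domain relatives of Txnip, and Aldh1l2, a mitochondrial folate enzyme that yields NADPH, were called over the strains (adjusted p = 0.049, 0.042 and 0.0469), with no single strain past the threshold; AJ was the closest in each, higher at Arrdc3 (0.58, adjusted p = 0.0555) and Arrdc4 (0.53, adjusted p = 0.0713) and lower at Aldh1l2 (-0.54, adjusted p = 0.0756).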

How the data were processed

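ATAC-seq of islets from 8 strains and both sexes gave 16 peak lists. Per the study's methods and the submitters' processing notes, the authors trimmed reads with cutadapt 2.0, aligned them to mm10 with Bowtie2 2.3.4.1, removed unmapped, mitochondrial and duplicate reads (SAMtools, Picard 2.9.2) and called peaks with MOSAiCS at an FDR of 0.05 in each sample on its own. The deposited lists give the signal at the summit of each peak and a further column that was read as its mean signal, though no header says what it averages, neither scaled to depth, and the −log10 p-value that the authors' caller assigned. Strain lists of reproducible peaks hold −log10 values of the IDR, the irreproducible discovery rate, as deposited, and were used only at a maximum of 0.05 to say in which strains a peak was reproducible. The lists give no read totals per sample, so no counting interval is given.

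Overlapping or touching peaks were merged on chromosomes 1 to 19 and assigned to members by GENCODE vM21. Tests used limma 3.58.1 in R 4.3.3 on log2(signal + 1) after subtracting each sample's median of the 40940 regions called in all 16 samples, with strain and sex as terms, and Benjamini-Hochberg adjustment over those regions at 0.05. Log2 differences are therefore on the log2(signal + 1) scale. Named regions were, for each member, the promoter region (the highest within 1000 bp of the 5′ end), the shared region with the smallest adjusted p, the unshared regions called in most samples (for Nnt, all), and, for listed genes, up to 4 called promoters a list. The 7 redox lists and the marker lists are those named with their counts in the text. The regions patterned by strain class were added after their values were seen. The members and lists were chosen with earlier results of these data known. Delta marker promoters summed to at most 1.26 and alpha to at most 6.71; among marker promoters, 2 of 6 beta, 0 of 1 alpha, 1 of 5 pan-endocrine and 1 of 1 acinar tested were called for strain (21.6% of protein-coding promoter regions and 35.7% of shared regions were), and those of the delta, duct, endothelial, immune and stromal lists were in fewer than 16 samples and not tested. Sequences come from RefSeq (GRCm38.p6, the assembly of mm10). The fit was also run on simulated data, with independent random noise and known shifts added in B6 only. That setting holds no other strain differences, and no result above rests on it. Other settings tried are named with their values in the closing section.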

Additional observations from a re-analysis of the deposited data

Results flagged for a closer look

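Within each sex, the 8 samples of each of the 15 shared regions were examined for a highest or lowest sample whose gap to the next, divided by the range, was above the 95% critical value of Dixon's test. Of the 30 groups, 7 had such a sample. The 8 samples of a group come from 8 strains, so the 1 in 20 rate of the test for like samples does not apply. The share over all shared regions was not computed, and the 7 are given as a description. At the exonic Cat region 28.4 kb from the 5′ end, the 129 female at 1.21 stood above the other females (0.323 to 0.717) and the PWK male at 1.19 above the other males (0.205 to 0.603). At the Sod2 promoter the B6 female was at 7.83, with the other females between 4.45 and 5.9. The NZO male stood above the other males at the Gpx1 promoter, at 1.75 against 0.364 to 0.768, and at the internal Txnrd1 start region, at 4.04 against 1.58 to 2.74. At the Txnrd1 intron the CAST male was at 1.35, with the other males between 0.291 and 0.656. At the Nfe2l2 promoter the WSB male was at 2.03, below the other males (3.38 to 4.53).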

How the results depend on the processing

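The count of member regions called for strain, 2 in the fit as reported, was 9 without centring, 1 with the stricter peak threshold (−log10 p of at least 5), 1 with the sum of summit signals, 1 with the mean signal, and 0 to 4 when 1 sample was left out (0 without either CAST sample, 4 without the NZO female). The strain calls over all 40940 shared regions moved as well. They were 14616 as reported, 25891 without centring, 13462 with the sum of summit signals and 11389 with the mean signal. With the stricter threshold 7182 of 20282 regions were called. The counts over all regions also moved when 1 sample was left out. With regions called in at least 12 samples the member count was again 2, where 12265 of 66895 regions were called. The 2 were the upstream Txnip region and a Nfe2l2 intron, where 2 samples of a strain with no peak were both set to 0 and so had no spread. The Nfe2l2 promoter (adjusted p = 0.106) and the Txnrd1 intron (0.082) were no longer called for strain. The count of single-strain contrasts, 3 as reported, was 26 without centring, 5 with regions in at least 12 samples, 1 with the mean signal, and 1 to 7 with a sample left out (1 without the CAST male, 7 without the NZO female, 5 without the NZO or the PWK male). Without centring, which leaves differences of depth in the values, the Nnt, Sod1, Gpx1 and Txnip promoters also passed the test over strains (adjusted p = 0.0326, 0.0488, 0.012 and 0.00999). In that fit the CAST contrast was called at 21408 of 40940 shared regions and the PWK contrast at 22719, against 8429 and 4535 as reported. The B6 difference at the Nnt promoter was 0.0546 without centring (adjusted p = 0.961) and 0.038 with the mean signal (0.949), and ran from -0.20 to -0.08 with a sample left out. The CAST difference at the internal Nnt region was not called without centring (0.262), with regions in at least 12 samples (0.0996) or with the mean signal (0.0634).

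The number of member regions called in all samples, 15, was 5 when a sample's peaks had to cover at least 0.5 of the region, 9 with strain lists at an IDR of 0.05, 9 with the stricter threshold and 12 with lists cut to 77887 peaks each, and ran from 15 to 16 with a sample left out. Calls for B6, sex and strain class at the members stayed at 0 in every alternative run. The causes of these changes were not tested. No paired analysis was possible because the labels give no replicate numbers; the sex term took that place, and removing it left the counts for strain, B6 and single strains as reported.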
